A study of Mus musculus with 4 samples.

Results

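The genes of 47 enzymes and carriers of sugar metabolism were examined for transketolase occupancy in mouse retina, as listed by chromatin immunoprecipitation with sequencing (ChIP-seq). They were chosen by name from 26219 genes with a RefSeq transcript: 15 of the pentose phosphate pathway and its sugar phosphates, 18 of glycolysis and 14 around the tricarboxylic acid (TCA) cycle. All retinas came from Tet-opsin-VEGFA mice, which carry an inducible VEGFA transgene and serve as a model of age-related macular degeneration with excess VEGF. The opsin promoter is known for activity in photoreceptors, and both groups carry the transgene. Noninduced and induced mice were compared, with 2 retinas collected per condition per the series text. Whether these were pooled, and the inducing agent, age and sex, are not given in the sources used here. A single ChIP library with its own input stood for each condition, so there were no replicates and no test between conditions. The lists hold peaks and no expression values, so the retina label could not be checked against marker genes.

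Transketolase is an enzyme of the nonoxidative pentose phosphate pathway, where it moves carbon units between sugar phosphates and so links ribose synthesis to glycolysis. The oxidative arm of the pathway makes NADPH. Photoreceptors are known for high aerobic glycolysis, with lactate made from glucose in the presence of oxygen, and the TCA cycle oxidises the acetyl-CoA derived from pyruvate. Some of these enzymes are also found in nuclei, and the series title concerns a role of transketolase in endoplasmic reticulum stress apart from catalysis.

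Promoter windows that a peak reached, from 250 bases before to 50 after a start site, were those of Acly and Eno1, and they are shown because they carry the peaks nearest to a start site. Acly, on the minus strand, encodes ATP citrate lyase, which makes acetyl-CoA from citrate. Its window (chr11:100527951-100528250, GRCm38.p6, RefSeq) is printed 5′ to 3′ with the 129 bases covered by peaks of both lists in capitals. Eno1, on the plus strand, encodes enolase of glycolysis. The window of its most downstream start site (chr4:150236974-150237273) is printed with the 54 bases under the induced peak in capitals.
Acly: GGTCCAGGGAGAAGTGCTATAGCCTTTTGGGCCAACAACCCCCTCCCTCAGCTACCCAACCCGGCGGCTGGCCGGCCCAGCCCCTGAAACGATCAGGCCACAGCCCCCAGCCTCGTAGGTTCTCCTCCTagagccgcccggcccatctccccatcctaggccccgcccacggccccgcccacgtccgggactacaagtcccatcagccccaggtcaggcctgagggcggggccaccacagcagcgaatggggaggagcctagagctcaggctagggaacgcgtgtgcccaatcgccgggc
Eno1: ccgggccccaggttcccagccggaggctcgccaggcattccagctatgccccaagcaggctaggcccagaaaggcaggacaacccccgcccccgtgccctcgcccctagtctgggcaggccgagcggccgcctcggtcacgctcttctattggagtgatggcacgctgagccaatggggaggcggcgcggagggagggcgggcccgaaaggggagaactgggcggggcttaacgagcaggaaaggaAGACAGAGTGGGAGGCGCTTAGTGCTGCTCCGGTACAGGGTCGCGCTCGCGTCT
The GC box letters GGGCGG, on either strand, occurred 4 times in the Acly window and 3 times in the Eno1 window, against 35.7% of 32851 RefSeq promoter windows with at least 1. None of these matches lay in the capitals. The noninduced Acly peak, however, covered all 300 bases of the Acly window and so all 4 of its matches. The core letters ACGTG, bound by hypoxia-inducible factors, occurred once in the Acly window and in 19.6% of all windows. The Acly match lay at base 180 on the strand opposite to the one printed, outside the capitals but under the noninduced peak. The E-box CACGTG, which contains ACGTG, was found in neither window and in 7.15% of all windows. Such matches describe the letters and no binding site.

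The noninduced list held 18267 peaks with 351574 tags, and the induced list held 30791 peaks with 472950 tags. The lowest tag count was 14 in the noninduced and 10 in the induced list, with medians of 18 and 11. Fold enrichment, classes, p-values and gene assignments are the authors' own. The fold sets ChIP tags against a background and had a median of 5.86 and 8.59. The background differs between the lists, so folds were compared within a list. Library depth was unknown, and a gene without a peak is not shown to be unbound.

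Enzyme genes held mostly weak peaks, in introns or at a distance, as did the peak lists as a whole. Any assigned peak was found at 13 of 47 members in the noninduced list, against 34.7% of all genes. The induced list had one at 25 of 47, against 45.4%. The number of peaks assigned to members was 28 in the noninduced list, of which 12 were intergenic, 9 intronic, 5 upstream and 2 at promoters. In the induced list it was 62, of which 27 were intergenic, 17 intronic, 11 upstream, 4 at promoters and 3 in exons. Of all noninduced peaks, 41.5% were intergenic, 34.2% intronic, 13.7% upstream, 8.47% at promoters and 2.1% in exons. Of all induced peaks, the shares were 45.8%, 30.8%, 14.5%, 5.77% and 3.13%. Median tags of member peaks were 17 in the noninduced and 11 in the induced list, against 18 and 11 for all peaks. Class and strength of member peaks were thus near those of all peaks. Promoter peaks belonged to 2 members in the noninduced list, against 6.46% of genes, and to 4 in the induced list, against 7.25%. Promoter and exon peaks together belonged to 2 members in the noninduced list, against 7.74% of genes, and to 5 in the induced list, against 10.2%. All 4 counts lay near their background. Members had a median span of 22861 bp, against 17729 bp for protein-coding genes and 14306 bp for all genes.

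By position, a peak lay inside 10 of 47 members in the noninduced list (22.7% of all genes) and inside 20 of 47 in the induced list (30.1% of all genes). The induced count was 12, against 22.1% of all genes, when the induced list was shortened to the 18267 peaks of highest score. By pathway, glycolysis genes held an inside peak at 3 of 18 in the noninduced and 10 of 18 in the induced list. Pentose phosphate genes did so at 1 of 15 and 5 of 15, and TCA genes at 6 of 14 and 5 of 14. The other listed genes of the same pathways gave 8 of 27 and 6 of 27 for glycolysis, 2 of 8 and 3 of 8 for pentose phosphate, and 6 of 24 and 11 of 24 for the TCA cycle. The higher induced count of the glycolysis members was not found in the other glycolysis genes, and no difference between pathways was tested. Members were chosen with earlier results of these data known, and the induced list is longer. The counts therefore cannot show a difference between members and other genes, and the shortened list was not split by pathway. Of the 25 members with an inside peak in either list, 5 had one in both, namely Acly, Aco1, Ogdh, Pgm1 and Suclg1. Those 5 were 5 of 10 in the noninduced and 5 of 20 in the induced list. The same share over all genes was not computed, so these counts cannot be read as a trait of the members.

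**Figure D1:**
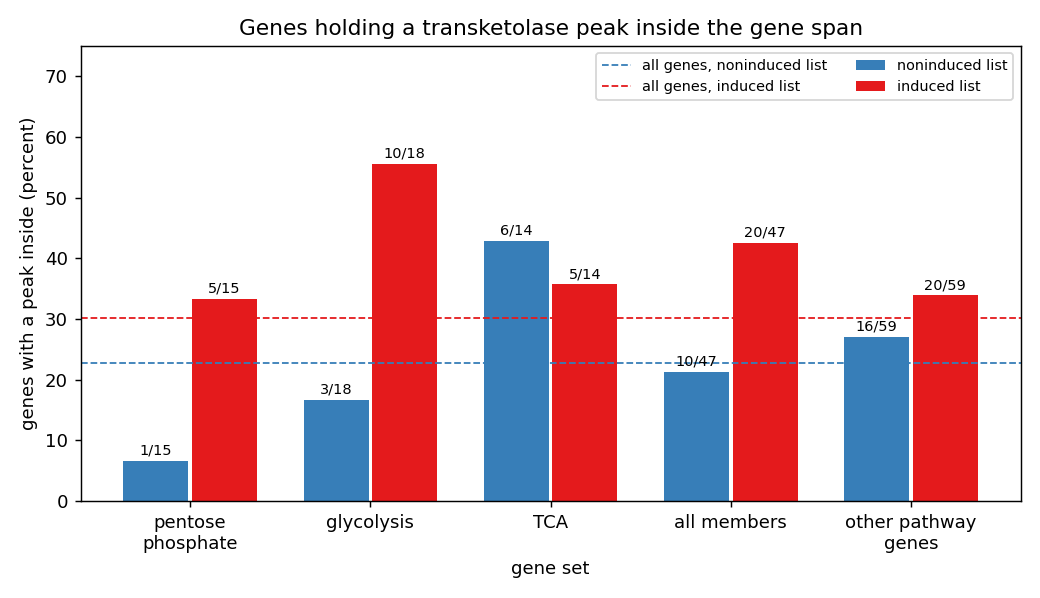
Percent of genes with a peak inside the gene span (y axis) for each gene set (x axis), with bars for the noninduced and induced lists, counts above the bars and dashed lines for all genes of each list. Glycolysis genes stand at 10 of 18 in the induced list and 3 of 18 in the noninduced list, and TCA genes at 5 and 6 of 14.

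Inside peaks were near the floor of their lists, as were the list medians of 18 and 11 tags. The 12 in the noninduced list held 14 to 32 tags at 5.38-fold to 8.80-fold, with a median of 17.5 tags. The 27 in the induced list held 10 to 24 tags at 5.37-fold to 21.48-fold, with a median of 12 tags and a median fold of 8.59, the same as for the whole induced list. Only 1 of the 27 reached 20-fold, in Pkm, so 1 of 47 members held an inside peak that strong, against 2.22% of all genes. In the noninduced list 0 members did, against 0.0% of all genes. In the induced list, 20 of the 27 inside peaks were centred 3′ of the gene's midpoint, against 51.7% of all induced peaks inside genes. In the noninduced list it was 6 of 12, against 46.6%.

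**Figure D2:**
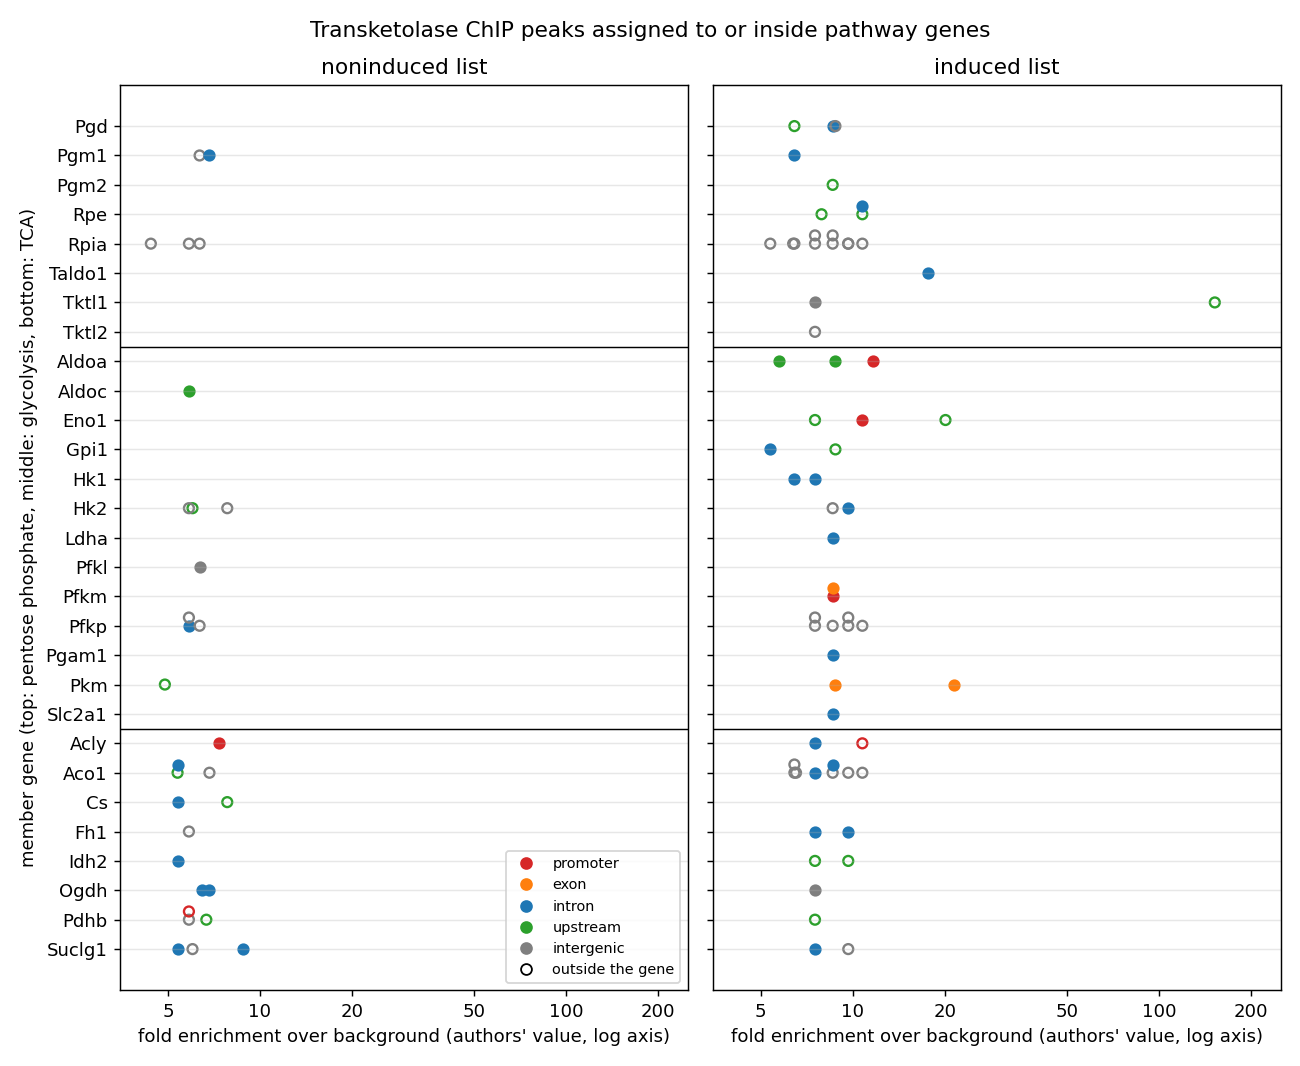
Fold enrichment (x axis, log scale, authors' value) of every peak assigned to or inside a member (y axis, 29 members with a peak) in the noninduced list (left) and the induced list (right), coloured by the authors' class; filled points lie inside the gene, open points outside, and points of equal fold are offset upwards. Most points lie below 12-fold, and the point at 152.48-fold is the peak assigned upstream of Tktl1.

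Among the pentose phosphate genes, 0 of 15 were assigned a promoter or exon peak in either list, a count that differs little from the 7.74% and 10.2% of all genes at this number of genes. Tkt, which encodes transketolase itself, held no peak, and the nearest peak lay 51885 bp away in the noninduced and 91101 bp away in the induced list. Its relatives Tktl1 and Tktl2 held none in the noninduced list. Tktl1, a transketolase-like gene on chromosome X, was assigned the strongest peak of all members in the induced list, upstream at chrX:74170647-74171898. This peak held 206 tags (95% Poisson interval 178.83 to 236.13) at 152.48-fold and ranked 81 of 30791 by fold. It overlapped the ribosomal protein pseudogene Rpl3-ps2, was centred at −5986 bp from the Tktl1 start site and was also assigned to Tex28. A second induced peak at the 3′ end of Tktl1 held 10 tags at 7.52-fold. Tktl2 was assigned a peak of 10 tags at 7.52-fold, 42513 bp from its start site.

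Taldo1 encodes transaldolase, the partner of transketolase in the nonoxidative arm. It held 20 tags (interval 12.22 to 30.89) at 17.55-fold in the induced list (chr7:141401465-141402073), classed as intronic and centred 88.8% of the way along the gene. No peak was listed for it in the noninduced list, where the nearest lay 75439 bp away. It ranked 1201 of the induced list by fold and was the strongest peak inside a pentose phosphate gene.

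In the oxidative arm, 1 of 4 genes held a peak, in the induced list. Over all genes, 34.7% had an assigned peak in the noninduced and 45.4% in the induced list. At 4 genes, this count cannot show a difference from the background. G6pdx and H6pd, the glucose-6-phosphate dehydrogenases, and Pgls, the lactonase, held no peak in either list. Pgd, the 6-phosphogluconate dehydrogenase, was assigned 3 induced peaks of 6.44-fold to 8.77-fold, of which 1 lay inside the gene with 11 tags at 8.59-fold. The other 2 lay over Kif1b. In the nonoxidative arm, Rpe, ribulose-phosphate epimerase, held 13 tags at 10.74-fold in an induced intronic peak, and both of its upstream peaks lay over Unc80. Rpia, ribose-phosphate isomerase, was assigned 3 noninduced and 10 induced peaks, yet none lay inside it. All 13 were at least 101925 bp from its start site and lay over Igk, the immunoglobulin kappa locus. Prps1 and Prps2, which make phosphoribosyl pyrophosphate, and the ribokinase gene Rbks held none.

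Phosphoglucomutase names differed between sources: the gene on chromosome 4 is Pgm2 in the deposited lists and Pgm1 in the RefSeq table, and the gene on chromosome 5 the reverse. By the RefSeq names, Pgm1 held an intronic peak in both lists, with 24 tags at 6.84-fold in the noninduced and 10 tags at 6.44-fold in the induced list. The peaks lay 2232 bp apart. Pgm2 was assigned an upstream peak of 15 tags at 8.59-fold in the induced list and none in the noninduced list.

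Glycolysis genes with promoter or exon peaks were Aldoa, Eno1, Pfkm and Pkm, all in the induced list. Pkm, pyruvate kinase, held 2 exon peaks and had none inside it in the noninduced list. The stronger (chr9:59670391-59670764) held 20 tags (interval 12.22 to 30.89) at 21.48-fold with a −log10 p of 16.97. The other held 12 tags at 8.77-fold, and their centres lay 61.4% and 54.6% of the way along the gene. The noninduced list assigned Pkm an upstream peak of 17 tags at 4.89-fold, which lay over Parp6.

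Eno1 was assigned 3 induced peaks and none in the noninduced list. The promoter peak (chr4:150237220-150238134), which covers the capitals printed above, held 24 tags (interval 15.38 to 35.71) at 10.74-fold. An upstream peak (chr4:150228162-150228447) also held 24 tags, at 20.08-fold and a −log10 p of 28.95, and overlapped no annotated gene or pseudogene. The weakest held 10 tags at 7.52-fold.

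Aldoa, aldolase A, carried 3 induced peaks inside its 5761 bp. The peak assigned to its promoter (chr7:126796999-126797624) held 13 tags at 11.63-fold but was centred 1867 bp downstream of the start site. The other 2, with 12 tags at 8.77-fold and 15 tags at 5.72-fold, lay closer to the 3′ end and were assigned by the authors to the neighbouring gene Ppp4c. Pfkm, a phosphofructokinase, held an induced promoter peak of 11 tags and an exon peak of 12 tags, both at 8.59-fold. The promoter peak was centred 1587 bp downstream of the start site and was shared with Senp1. Thus among the 3 glycolysis genes with promoter peaks only that of Eno1 was centred within 1 kb, at 480 bp.

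**Figure D3:**
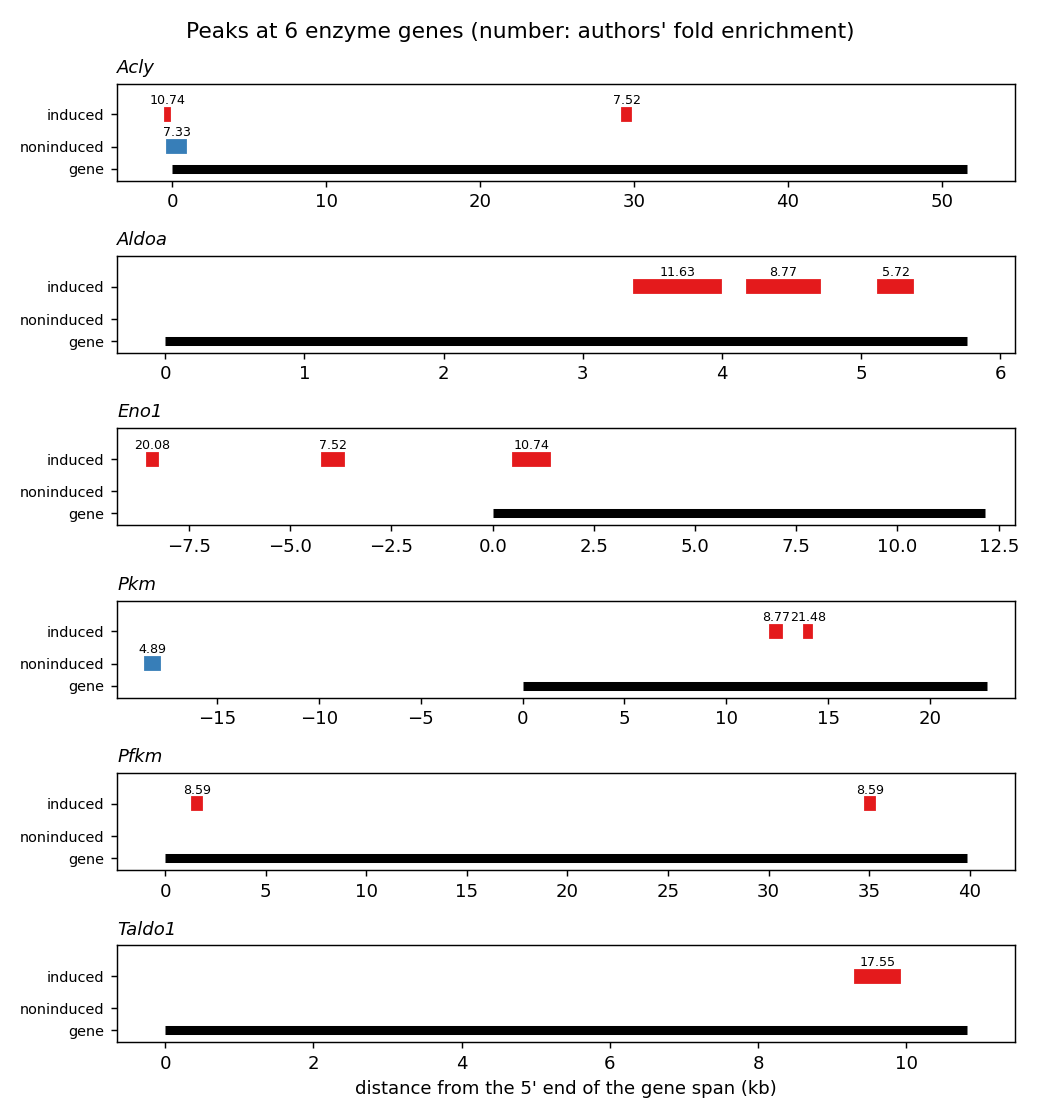
Peaks of the noninduced (blue) and induced (red) lists at 6 enzyme genes, by distance from the 5′ end of the gene span (x axis, kb, a scale for each gene), with the gene as a black bar and the authors' fold above each peak. The 3 Aldoa peaks lie towards the 3′ end, those of Pkm near and past the middle, and the Acly peaks of both lists overlap at the 5′ end.

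Intronic induced peaks were listed at Hk1, Hk2, Gpi1, Ldha, Pgam1 and the glucose transporter gene Slc2a1. These held 10 to 12 tags at 5.37-fold to 9.66-fold. Hexokinase genes Hk1 and Hk2, which start glycolysis, differed in the noninduced list: Hk1 had no peak and Hk2 was assigned 3, all outside the gene, at 5.86-fold to 7.82-fold. Pfkp, another phosphofructokinase, was assigned 3 noninduced and 6 induced peaks, but of these only 1 noninduced intronic peak of 16 tags at 5.86-fold lay inside it. The nearest induced peak of any assignment lay 397616 bp from Pfkp, and the nearest of its 6 was centred at −448129 bp from its start site. Inside peaks assigned to neighbours were found in Aldoc (24 tags at 5.86-fold, assigned to Pigs and Unc119) and Pfkl (15 tags at 6.35-fold, assigned to Cfap410) in the noninduced list. Neither gene held an induced peak.

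TCA genes gave 8 of 14 members with an assigned peak in the noninduced list, against 34.7% of all genes, and 6 of 14 in the induced list, against 45.4%. The other TCA genes gave 10 and 12 of 24. Acly was the only member with a promoter peak in both. The noninduced peak (chr11:100527094-100528315) held 29 tags (interval 19.42 to 41.65) at 7.33-fold, centred 296 bp after the start site. The induced peak (chr11:100528122-100528488) held 10 tags (interval 4.80 to 18.39) at 10.74-fold, centred at −304 bp from it. The 2 overlapped, which made 1 of 30 noninduced and 1 of 65 induced peaks at members that overlapped the other list. Over all peaks the shares were 2.73% and 1.63%, so overlap at members was near its background. The induced peak was at the tag floor of its list.

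Pdhb, a subunit of pyruvate dehydrogenase, was assigned 3 noninduced peaks. The promoter peak held 17 tags at 5.86-fold, at −1052 bp from the start site. An upstream peak held 17 tags at 6.68-fold, and an intergenic peak of 15 tags at 5.86-fold lay over Pxk. Pdhb was assigned 1 induced peak, upstream, of 11 tags at 7.52-fold. Cs, citrate synthase, held an upstream peak of 26 tags at 7.82-fold and an intronic peak of 16 tags at 5.38-fold in the noninduced list, and no induced peak. Suclg1, a subunit of succinyl-CoA ligase, held the strongest noninduced peak of all members, an intronic one of 24 tags (interval 15.38 to 35.71) at 8.80-fold that ranked 245 of 18267. Its induced intronic peak held 10 tags at 7.52-fold and lay 6993 bp away.

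Ogdh, the oxoglutarate dehydrogenase gene, held the most tags of any noninduced peak among the members, 32 (interval 21.89 to 45.17) at 6.84-fold, in an intron. Its second noninduced peak held 17 tags at 6.48-fold. An induced peak of 11 tags at 7.52-fold lay inside Ogdh, although it was assigned to Zmiz2. Aco1, the cytosolic aconitase that also binds iron-responsive RNA elements, was assigned 3 noninduced and 8 induced peaks, of which 1 and 2 lay inside it. The inside peaks held 17 tags at 5.38-fold in the noninduced list and 11 tags at 8.59-fold and 12 tags at 7.50-fold in the induced list. Fh1, fumarate hydratase, held 2 induced intronic peaks (13 tags at 9.66-fold and 10 tags at 7.52-fold) and an intergenic noninduced one (19 tags at 5.86-fold). Idh2, mitochondrial isocitrate dehydrogenase, held an intronic noninduced peak (18 tags at 5.38-fold) and 2 upstream induced ones (9.66-fold and 7.52-fold).

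No peak was assigned to or inside 18 of the 47 members in either list, against 37.8% of all genes, so the members were near the background. These were Tkt, G6pdx, H6pd, Pgls, Prps1, Prps2 and Rbks of the pentose phosphate group, Eno2, Gapdh, Ldhb, Pgk1 and Tpi1 of glycolysis, and Dlat, Idh1, Idh3a, Mdh1, Mdh2 and Pdha1 around the TCA cycle. Of them, 5 lie on chromosome X, where 6 members lie in all. Genes on chromosome X had an assigned peak in 8.5% of cases in the noninduced and 24.5% in the induced list, against 35.8% and 46.3% of the other genes. Gapdh, a gene widely used as a reference for expression, had its nearest peak 15697 bp away in the noninduced and 31026 bp away in the induced list.

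Some copies of glycolysis genes elsewhere in the genome carried induced peaks of higher fold than any peak inside the gene they are named after. By symbol or synonym, RefSeq names 23 pseudogenes after 8 members, all glycolytic (Aldoa, Gapdh, Gpi1, Ldha, Ldhb, Pgam1, Pgk1 and Tpi1). Descriptions were not searched, so the 23 need not be all the pseudogenes of the members. No noninduced peak overlapped any of the 23, against 2.6% of 10429 annotated pseudogenes. In the induced list 11 of the 23 were overlapped, by 10 peaks, against 13.2% of all pseudogenes. Peaks of at least 20-fold overlapped 10 of the 23 in the induced list, against 6.34%, and 0 in the noninduced list, against 0.0%. The pseudogenes with a peak belonged to 7 of the 8 members. The other 12 of the 23 had no induced peak. Among them were all 3 named for Ldha, which itself held 11 tags at 8.59-fold, and 6 of the 7 named for Tpi1.

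The highest of these folds was at Gapdh-ps14, with 128 tags (interval 106.79 to 152.19) at 137.44-fold, while Gapdh itself held no peak. Pgk1-rs7 held the most tags, 257 (interval 226.54 to 290.42) at 98.79-fold, and Pgk1, phosphoglycerate kinase, held none. Gpi-ps held 120 tags at 57.98-fold, against 10 tags at 5.37-fold inside Gpi1, the glucose-6-phosphate isomerase gene. Ldhb-ps held 78 tags at 48.32-fold, and Ldhb, a lactate dehydrogenase gene, held none. The other 6 peaks, over Aldoa-ps3 and Aldoa-ps4 jointly, Gm5389 (an Aldoa pseudogene), Gapdh-ps15, Gapdh-ps16, Tpi-rs11 and Pgam1-ps2, held 17 to 55 tags at 13.96-fold to 46.51-fold. The lowest was Pgam1-ps2, with 17 tags (interval 9.90 to 27.22) at 13.96-fold. Pgam1 itself held 10 tags (interval 4.80 to 18.39) at 8.59-fold, and these intervals of tags overlap. Among 4 protein-coding copies looked up by name, Aldoart1 held 118 tags at 80.73-fold, Aldoart2 held 205 tags at 118.12-fold and Eno1b held 222 tags at 99.86-fold in the induced list. G6pd2 held none, and none of the 4 held a noninduced peak. Over all genes, 2.22% held an inside peak of at least 20-fold in the induced list, and 22.7% held any inside peak in the noninduced list. These coding copies were looked up after the pseudogene values had been seen, and they are not all the coding genes with names like a member's. Pgk2 and Prps1l1, counted among the other pathway genes, were assigned only intergenic peaks, at 5.38-fold to 10.74-fold. Copies and parent genes can be nearly identical in sequence, and how reads matching several places were treated is not given in the sources used here, so the tags at either are uncertain. The part of read placement in this difference was not tested.

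**Figure D4:**
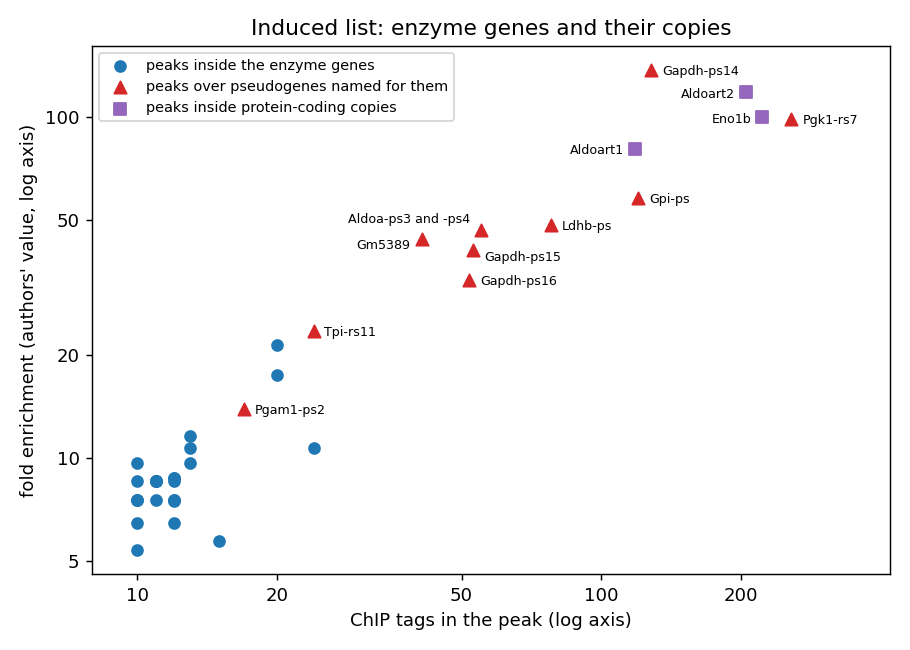
ChIP tags (x axis, log scale) and authors' fold enrichment (y axis, log scale) of induced peaks inside the enzyme genes (27 blue circles, some overlaid), over pseudogenes named for them (10 red triangles) and inside protein-coding copies (3 purple squares). The circles lie at 10 to 24 tags, and 9 of the 10 triangles and all 3 squares lie above 20-fold.

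Other genes of the same pathways, 59 in all, had an assigned peak at 23 in the noninduced and 24 in the induced list. Over all genes the shares were 34.7% and 45.4%. A peak lay inside 16 and 20 of the 59, against 22.7% and 30.1% of all genes. Promoter or exon peaks were at 6 and 5 of the 59, near the 7.74% and 10.2% of all genes. In the noninduced list these were Bpgm (6.35-fold), Pfkfb2 (5.86-fold) and Hk3 (7.33-fold, exon) of glycolysis and Dlst (6.48-fold), Pdp1 (6.35-fold) and Sdhb (5.38-fold) around the TCA cycle. In the induced list they were Dld (16.11-fold, exon), a component of pyruvate and oxoglutarate dehydrogenases, Pdk2 (12.67-fold), a kinase that restrains pyruvate dehydrogenase, Gapdhs (7.52-fold), and Pfkfb3 (9.66-fold) and Slc16a1 (6.44-fold) in exons.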

How the data were processed

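Transketolase ChIP and input DNA from noninduced and induced retinas were sequenced as 4 libraries. Tissue was crosslinked with methanol and sonicated before precipitation with a transketolase antibody, per the labels' protocols. The submitters' processing notes name FastQC, Bowtie2 2.2.7 and the mm10 (GRCm38) build. Peak calling and the placement of reads with several matches are not given in the sources used here. Each list compared 1 ChIP library with the input of its condition. The deposited counts are whole tags of the ChIP library within a peak, per the file headers. The authors gave fold enrichment as a ratio, the p-value as a score of 10 times −log10 p, and the false discovery rate as a percent (at most 6.08 in the noninduced and 0.64 in the induced list). A further 3 sheets held no values.

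Peaks were counted once per gene and list. Genes were matched by RefSeq accession to a RefSeq table of GRCm38.p6 (99.7% and 99.8% of lines), whose spans and pseudogenes were used at an overlap of at least 1 bp. Of 61 other pathway genes, 59 were found. Pseudogenes were tied to a member by symbol or synonym; an older name now held by another gene was not used. Poisson intervals (95%) cover counting error only. Values were given for Tkt, members with a promoter or exon peak or peaks in both lists, and the 10 members of highest fold in each list. Not every peak of these members was described singly. Members and lists were chosen with earlier results of these data known. Alternatives were a −log10 p of at least 10, equal numbers of top peaks, no pseudogene peaks, and stricter windows and overlaps. The overlap code was tested on simulated peaks. The tools were scipy 1.17.1, numpy 2.4.6 and pandas 2.3.3 under Python 3.11.15, with matplotlib 3.10.9 for figures.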

Additional observations from a re-analysis of the deposited data

How the results depend on the processing

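No paired analysis was possible because neither condition had a replicate, and none could be left out. Of peaks with −log10 p of 10 or more, the noninduced list had 0 members with an assigned peak, 0 with a promoter or exon peak, 0 with an inside peak and 0 other pathway genes, against 0.591%, 0.16% and 0.393% of all genes for the first 3. At that threshold the induced counts were 5, 2, 3 and 4, against 6.38%, 1.75% and 3.89% of all genes for the first 3. No noninduced member peak was left at that threshold, the highest being at 8.535, so the 0 overlaps of member peaks were fixed in advance. Over all peaks, 21.6% of noninduced and 1.77% of induced peaks overlapped the other list. Fewer peaks are left by construction, 153 and 1868. With equal numbers of top peaks, the induced count of members with an inside peak was 12, against 22.1% of all genes. With promoter centres within 1 kb, the noninduced count of members with a promoter or exon peak was 1, against 5.5% of all genes. At an overlap of at least 50% of both peaks, the Acly pair was lost and 0 member peaks were shared in either direction, against 1.41% and 0.835% of all peaks. The other values stayed within 1.5 times. The settings for pseudogenes named after members, chosen after seeing the data, gave 10 with a −log10 p of at least 10 and 11 with equal numbers.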
